A study of Mus musculus with 10 samples.

Results

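The potassium channel genes of the mouse were described here in 10 hearts from Rit1 M90I/+ mice, which carry a germline gain-of-function variant of the RAS-like GTPase Rit1. Members were the protein-coding genes whose symbol starts with Kcn followed by subfamily letters and a number, a rule that uses names only. It gave 93 of the 54532 deposited genes, of which 77 encode pore-forming subunits and 16 encode accessory subunits, in 20 subfamilies. Of the 93 members, 28 averaged 0.5 FPKM or more in the 10 hearts and are called expressed below. They comprised 23 pore-forming and 5 accessory members in 14 subfamilies. FPKM here is fragments per kilobase of gene length, scaled by a library size that differed from the fragment total of the heart.

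The hearts sequenced, part of a larger trial in the paper, came from 5 mice given vehicle and 5 mice given trametinib at 1 mg/kg. Trametinib is an allosteric inhibitor of the kinases MEK1 and MEK2 (MEKi). Dosing was daily, started at 4 weeks of age and ran for 20 weeks, and hearts were taken after a last dose on the same day. All 10 mice, controls included, carried the Rit1 M90I/+ genotype, produced by crossing a conditional Rit1 M90I allele to a cytomegalovirus-Cre deleter line, so the variant was not limited to the heart and the comparison holds no wild-type heart. Poly(A) RNA of whole cardiac tissue was sequenced, with 13647167 to 18474002 fragments per heart.

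Potassium channels let potassium leave the cardiomyocyte down its gradient, which brings the membrane back to rest after each action potential and holds it there between beats. A channel needs pore-forming subunits, which meet around a central pathway lined by a conserved selectivity filter, and often accessory subunits that set gating or traffic to the membrane. In the mouse ventricle, repolarization is known to rely on the fast transient outward current (Kcnd2 and Kcnd3 pores with the Kcnip2 subunit) and on delayed rectifiers such as Kcna5. The inward rectifiers Kcnj2 and Kcnj12 set the resting potential, Kcnj3 and Kcnj5 form the acetylcholine-gated channel of atrial and nodal cells, and Kcnj11 and Kcnj8 form ATP-sensitive channels.

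The selectivity filter is the stretch that all pore-forming members share, and the naming rule did not use it. A signature of threonine or serine, then valine, isoleucine or leucine, then glycine, then tyrosine, phenylalanine or leucine, then glycine was searched in the coding sequence of each member in GENCODE M21, translated in its reading frame. The residues allowed take in the variants known among these channels, and a match describes the letters only. The pore-forming and accessory classes were set by subfamily from known function, so a split between them was largely built in. It was found in 77 of 77 pore-forming members and in 0 of 16 accessory members, against 1.34% of the 21560 mouse coding genes searched in the same annotation. Among the expressed pore-forming members, 20 held it at 1 place and Kcnk3, Kcnk6 and Kcnk2, which belong to the family with paired pore domains, held it at 2 places. The stretches below show the filter codons of some of the expressed pore-forming members. Each has its own 15 bases, so the codons vary within the residue pattern that the search set. Each gives 45 bases of the coding strand, 5′ to 3′, from the GENCODE M21 transcripts on GRCm38, with the 15 signature bases in capitals and 5 codons on each side in lower case.
Kcnk3 (chr5:30622187-30622231, plus strand, exon 2 of 2, second filter): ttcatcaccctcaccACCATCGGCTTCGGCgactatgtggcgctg
Kcnj11 (chr7:46099481-46099525, minus strand, exon 1 of 1): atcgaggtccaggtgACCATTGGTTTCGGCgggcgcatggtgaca
Kcnj8 (chr6:142566433-142566477, minus strand, exon 3 of 3): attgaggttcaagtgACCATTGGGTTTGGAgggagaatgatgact
Kcnj2 (chr11:111072192-111072236, plus strand, exon 2 of 2): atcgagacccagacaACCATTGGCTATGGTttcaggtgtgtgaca
Kcnh2 (chr5:24325540-24325584, minus strand, exon 7 of 15): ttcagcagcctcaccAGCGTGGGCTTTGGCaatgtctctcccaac
Kcna5 (chr6:126533730-126533774, minus strand, exon 1 of 1): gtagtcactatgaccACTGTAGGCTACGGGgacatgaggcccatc
Kcnd2 (chr6:21217391-21714156, plus strand, split by the intron between exons 1 and 2 of 6): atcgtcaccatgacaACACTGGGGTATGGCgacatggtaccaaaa
All of these lie in coding exons, and the coordinates of 89 of the 93 members were the same in the deposited table and in GENCODE M21.

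Potassium channel transcripts in these hearts were dominated by a few members. On the FPKM scale, which is per gene length and so allows levels to be set side by side, Kcnk3, Kcng2 and Kcnip2 together held 57.4% of the summed level of the 28 expressed members, and the 10 most abundant members held 89.3%. Of the 28, 7 averaged at least 10 FPKM, 13 averaged 1 to 10 FPKM and 8 averaged less than 1 FPKM. By subfamily the inward rectifiers (Kcnj, 7 of 15 members expressed) held 25.8% of the sum, the paired-pore channels (Kcnk, 3 of 14) 20.7%, Kcng (1 of 4) 19.3% and the calcium-binding Kcnip subunits (2 of 4) 18.2%. Every one of the other 10 expressed subfamilies held less than 5% of the sum, the highest being Kcnh with 4.92%, all of it from Kcnh2.

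**Figure D1:**
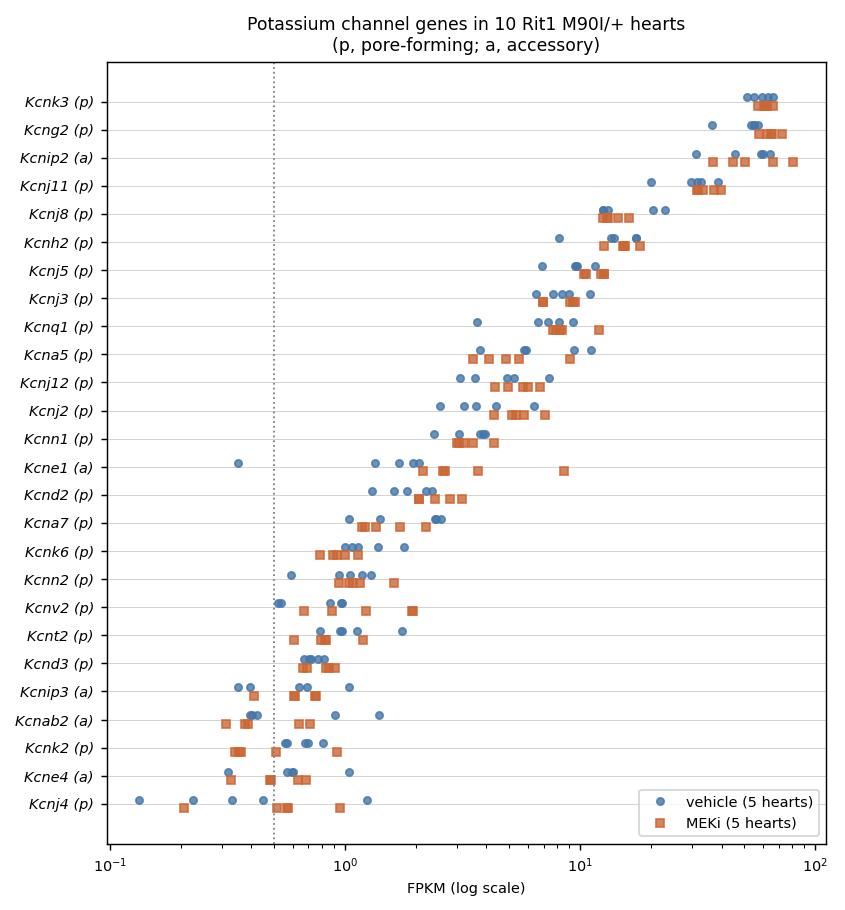
FPKM of 26 of the 28 expressed potassium channel genes in each heart (log axis; circles, 5 vehicle hearts; squares, 5 MEKi hearts; dotted line, the 0.5 FPKM filter), ordered by the mean of all hearts. Levels fall from 60.3 FPKM for Kcnk3 to 0.519 FPKM for Kcnj4, and the groups overlap for every member shown except Kcng2 and Kcne1.

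Kcnk3, an acid-sensitive background channel, averaged 60.3 FPKM over the 10 hearts. Kcng2, a modifier subunit that is silent alone, averaged 57.9 FPKM, and Kcnip2, the calcium-binding subunit of the transient outward channel, averaged 53.8 FPKM. The order of these leading members was not fixed, since Kcnk3 exceeded Kcng2 in 6 of 10 hearts and Kcng2 exceeded Kcnip2 in 5 of 10. The step down to Kcnj11 (32.6 FPKM) held in 10 of 10 hearts, as did the step from Kcnj11 to Kcnj8 (15.1 FPKM). Kcnj8 and Kcnh2, the pore of the rapid delayed rectifier (14.7 FPKM), changed places in 5 of 10 hearts. Kcnj5 (10.6 FPKM) followed, below Kcnh2 in 10 of 10 hearts. For every neighbouring pair in the order of the 28 members, the ranges over the 10 hearts overlapped.

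The members between 1 and 10 FPKM included Kcnj3 (8.44 FPKM), Kcnq1, the slow delayed rectifier pore (7.92 FPKM), Kcna5 (6.31 FPKM), Kcnj12 (5.19 FPKM) and Kcnj2 (4.78 FPKM). Kcnn1, a small-conductance calcium-activated channel, averaged 3.41 FPKM, Kcne1 2.70 FPKM and Kcnd2 2.18 FPKM. For the transient outward channel the pore transcripts were not the most abundant. In FPKM, Kcnip2 stood at 13.3 to 37.2 times the level of Kcnd2 in the vehicle hearts and at 15.9 to 27.3 times in the MEKi hearts. These ratios are of transcripts, and the make-up of the channel protein was not measured. Between the transient outward pores, Kcnd2 exceeded Kcnd3 (0.763 FPKM) in all 10 hearts, by 1.86 to 4.56 times.

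The remaining expressed members lay near or under 1 FPKM. They were the voltage-gated Kcna7, the paired-pore Kcnk6, the calcium-activated Kcnn2, the modifier Kcnv2 and the sodium-activated Kcnt2, at 0.982 to 1.76 FPKM, and then Kcnip3, Kcnab2, Kcnk2, Kcne4 and Kcnj4, at 0.519 to 0.626 FPKM. The members just inside the filter were Kcne4 (0.574 FPKM) and Kcnj4 (0.519 FPKM), and those just outside were Kcne3 (0.363 FPKM) and Kcnk5 (0.335 FPKM). Kcnab2 and Kcnk2 passed the filter through the vehicle hearts and Kcnj4 through the MEKi hearts, so these members had to differ somewhat between the groups. Kcnk2, a stretch-sensitive channel, spans the processed pseudogene Pdcd5-ps on the same strand (55.7 FPKM). How reads in such overlaps were assigned was not given in the sources used here, so the level of Kcnk2 is uncertain to that extent.

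The other 65 members stayed under the filter, 51 of them above 0 in at least 1 heart and 14 listed at 0 in every heart. Kcna4, the pore of the slow transient outward current, averaged 0.325 FPKM from 6 to 46 fragments per heart. Kcnma1, the large-conductance calcium-activated channel of smooth muscle, averaged 0.0149 FPKM from at most 11 fragments per heart. The 14 at 0 included Kcnj1, Kcnj16 and Kcne2, each within 100 kb of an expressed member (Kcnj5, Kcnj2 and Kcne1, at 28.1, 38.2 and 47.9 kb). A value of 0 at this depth allows up to 3 fragments per heart, by counting error only. The Kcnc, Kcnf, Kcnma, Kcnmb, Kcns and Kcnu subfamilies had 0 expressed members.

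None of the 28 expressed members passed the test for a difference between MEKi and vehicle hearts. Limma was fitted to log2(FPKM + 0.1) of the 12602 genes past the same filter. Of the members 0 had an adjusted p under 0.05, against 0.0794% of the genes tested. In a fit without X, Y and mitochondrial genes, 0 of 12178 genes had an adjusted p under 0.05. In the fit of all 12602 genes, the lowest adjusted p of a member was 0.514, for Kcne1. At an unadjusted limma p under 0.05 there were 6 members (21.4%), against 7.62% of the genes tested. All 6, Kcne1, Kcng2, Kcnj5, Kcnd2, Kcnj2 and Kcnv2, were higher with MEKi, a direction that 3.67% of the genes tested took at that threshold, while 3.94% were lower. The groups did not overlap for 2 members (7.14%), Kcne1 and Kcng2, both higher with MEKi. Among the genes tested, 1.64% did not overlap, 0.794% higher and 0.849% lower. The fitted log2 fold change, MEKi minus vehicle on that scale and called the log2 difference below, was above 0 for 18 members (64.3%) and below 0 for 10, against 52.1% above 0 among the genes tested. Its median was 0.09 over the members and 0.01 over the genes tested. The members counted include Kcnk2, Kcnab2 and Kcnj4, whose directions were partly set by the filter.

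The counts turned on particular hearts. With vehicle 5 left out, 15 members lay above 0 and 13 below, and the median was 0.03. The number of members higher at an unadjusted limma p under 0.05 was 2 without MEKi 3, where 2.98% of the genes tested were higher at that threshold. It was 3 without vehicle 1 (5.41% of the genes), vehicle 4 (3.61%) or MEKi 5 (3.46%), and 4 to 6 without any 1 of the other hearts (3.01% to 4.88%). Every MEKi heart also held the X-inactivation transcript Xist (5.16 to 6.85 FPKM), which was at most 0.00662 FPKM in the vehicle hearts, and the Y-linked Ddx3y was at 10.3 to 12.2 FPKM in the vehicle hearts and at 0 in the MEKi hearts. By these transcripts the MEKi hearts read as female and the vehicle hearts as male, while the paper states that littermates of both sexes were included. Treatment and sex read in this way divide the hearts alike, so their parts in any difference below cannot be told apart. The 2 X-linked members, Kcne1l and Kcnd1, were both under the filter. In bulk tissue, fewer cells of a type and less RNA per cell cannot be told apart either.

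**Figure D2:**
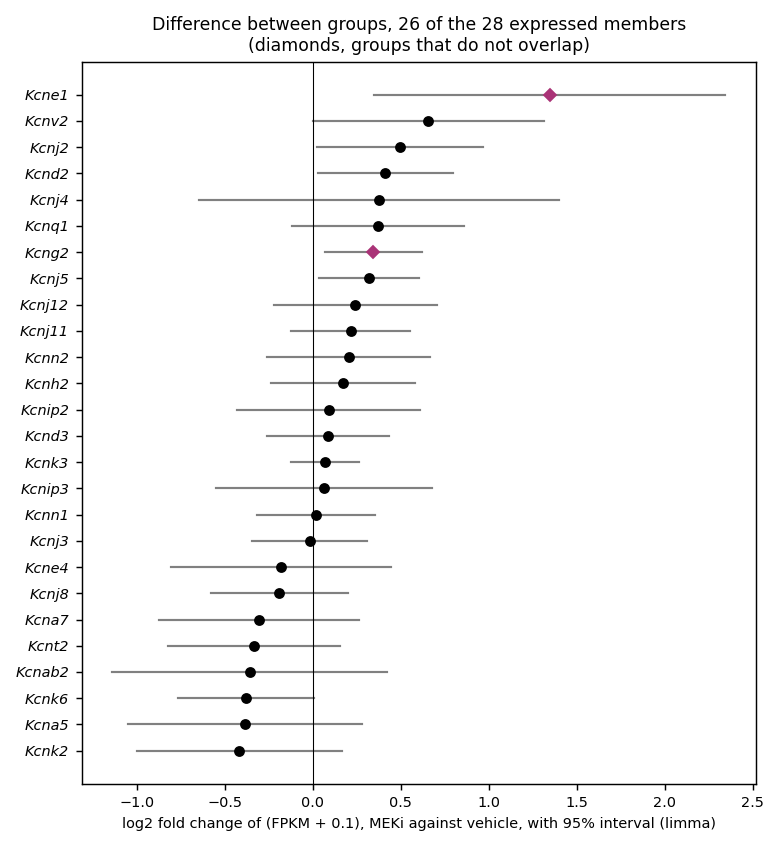
Fitted log2 fold change of (FPKM + 0.1), MEKi against vehicle, for 26 of the 28 expressed potassium channel genes, with the 95% limma interval (lines) and with diamonds where the groups do not overlap. Points run from -0.42 for Kcnk2 to 1.35 for Kcne1, and 0 members had an adjusted p under 0.05. Kcnk2 and Kcnab2 passed the filter only through the vehicle hearts and Kcnj4 only through the MEKi hearts, so their directions were partly set by the filter.

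Kcne1, the small accessory subunit that slows Kcnq1 channels into the slow delayed rectifier, had the largest fitted difference of the 28 members. It lies on the minus strand at chr16:92345982-92359468 (mm10). The vehicle hearts 1 to 5 were at 1.70, 1.34, 0.350, 1.94 and 2.07 FPKM. The MEKi hearts 1 to 5 were at 2.61, 8.54, 3.66, 2.66 and 2.16 FPKM. The groups touched closely, with the highest vehicle heart just under the lowest MEKi heart, while vehicle 3 was low and MEKi 2 high for their groups. The means were 1.48 ± 0.692 and 3.93 ± 2.64 FPKM (SD, n = 5 each), and the log2 difference was 1.35 (SE 0.46, 95% interval 0.35 to 2.34, limma adjusted p = 0.514). The exact permutation p was 0.00794, the smallest that 5 hearts against 5 can give, and it is not corrected for the number of members. Leaving out 1 heart at a time, the log2 difference ran from 0.94, without vehicle 3, to 1.51. Counts were low, at 16 to 471 fragments per heart, for which counting error alone gives an SD of 0.17 on the log2 scale beside a residual SD of 0.86.

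Kcng2 was the other member without overlap, at a level over 10 times that of Kcne1. It lies on the minus strand at chr18:80294546-80364254. The vehicle hearts 1 to 5 were at 57.2, 55.1, 54.7, 53.3 and 36.5 FPKM, and the MEKi hearts 1 to 5 at 64.7, 72.4, 62.5, 57.9 and 65.3 FPKM. The vehicle hearts other than vehicle 5 were close together, and the lowest MEKi heart lay just above the highest of them. The means were 51.3 ± 8.44 and 64.5 ± 5.27 FPKM, a ratio of 1.26, with a log2 difference of 0.34 (SE 0.13, 95% interval 0.07 to 0.62, limma adjusted p = 0.554, exact permutation p = 0.00794). Without vehicle 5 the log2 difference was 0.23 (limma adjusted p = 0.634), and its groups overlapped once values were rescaled to TPM or quantile normalized.

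Kcnv2, the other silent modifier among the expressed members, was at 0.861, 0.964, 0.537, 0.520 and 0.969 FPKM in the vehicle hearts 1 to 5. In the MEKi hearts 1 to 5 it was at 0.880, 1.23, 1.95, 1.94 and 0.673 FPKM. MEKi 3 and MEKi 4 stood well above the other 8 hearts, while MEKi 1 and MEKi 5 fell within the vehicle range. The log2 difference was 0.66 (SE 0.30, 95% interval 0.00 to 1.31, limma adjusted p = 0.652, exact permutation p = 0.0873).

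**Figure D3:**
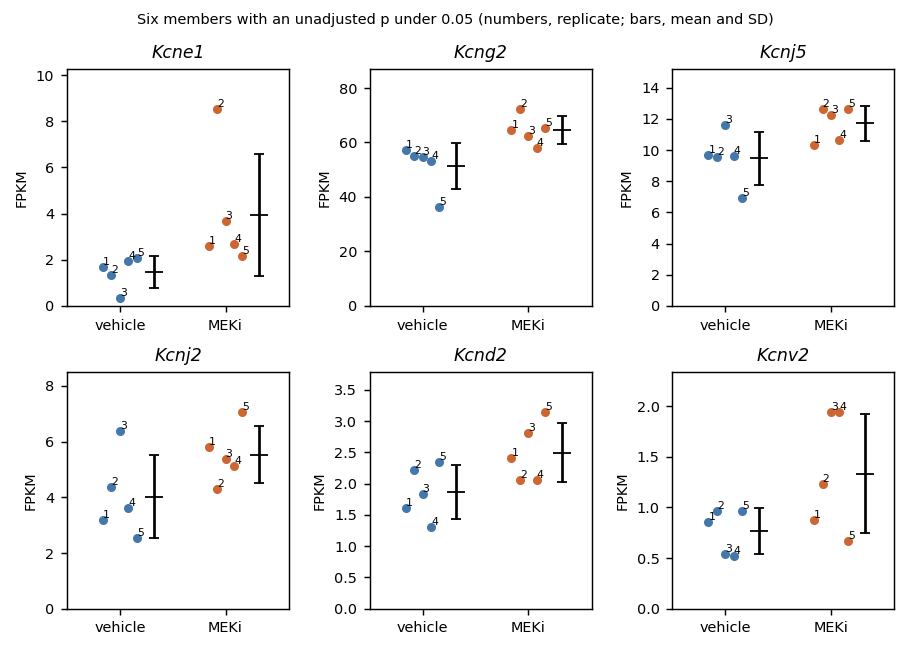
FPKM per heart (linear axes from 0; numbers give the replicate) of the 6 members with an unadjusted limma p under 0.05, with the mean and SD of each group (n = 5). Only Kcne1 and Kcng2 separate the groups, and vehicle 5 is the lowest heart for Kcng2, Kcnj5 and Kcnj2.

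The expressed inward rectifiers of the resting-potential class were Kcnj2, Kcnj12 and Kcnj4, of which Kcnj4 passed the filter only through the MEKi hearts. Kcnj2 was at 3.20, 4.38, 6.38, 3.61 and 2.55 FPKM in the vehicle hearts 1 to 5 and at 5.79, 4.29, 5.37, 5.12 and 7.07 FPKM in the MEKi hearts 1 to 5. Vehicle 3 lay above all MEKi hearts except MEKi 5, and the other vehicle hearts lay at or below most of them. The log2 difference was 0.50 (SE 0.22, limma adjusted p = 0.626, exact permutation p = 0.0952), and 0.68 without vehicle 3. Kcnj12 was at 4.84 ± 1.68 FPKM with vehicle against 5.54 ± 0.927 FPKM with MEKi, a log2 difference of 0.24 (SE 0.21, limma adjusted p = 0.820). Kcnj4, a further member of this class, was at 0.476 ± 0.444 and 0.562 ± 0.264 FPKM from 4 to 38 fragments per heart. For Kcnj12 and Kcnj4 the spread within groups exceeded the difference of the means.

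Of the acetylcholine-gated channel's subunits, Kcnj5 was among the 6 members above and Kcnj3 was not. Kcnj5 was at 9.68, 9.54, 11.6, 9.60 and 6.89 FPKM in the vehicle hearts 1 to 5 and at 10.3, 12.7, 12.3, 10.6 and 12.6 FPKM in the MEKi hearts 1 to 5. Only vehicle 3 reached into the MEKi range. The log2 difference was 0.32 (SE 0.13, limma adjusted p = 0.605, exact permutation p = 0.0476), and the 28 members give 28 such exact values, which are not corrected for their number. Kcnj3 was at 8.51 ± 1.68 and 8.36 ± 1.29 FPKM, a log2 difference of -0.02 (SE 0.15), and it took the other sign after rescaling to TPM. Per heart, the ratio of Kcnj3 to Kcnj5 ran from 0.673 to 1.15 with vehicle and from 0.566 to 0.880 with MEKi, so the ranges overlapped.

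Of the ATP-sensitive channel pores, Kcnj11 was low in vehicle 5 and Kcnj8 was high in vehicle 1 and vehicle 2. Kcnj11, the cardiomyocyte pore, was at 31.4, 32.6, 38.6, 29.6 and 20.0 FPKM in the vehicle hearts 1 to 5 and at 31.5 to 39.9 FPKM in the MEKi hearts (log2 difference 0.22, SE 0.15, limma adjusted p = 0.777, and 0.07 without vehicle 5). Kcnj8, the pore best known from vascular smooth muscle and pericytes, was at 23.1, 20.4, 13.2, 12.5 and 12.5 FPKM in the vehicle hearts 1 to 5 and at 12.5 to 16.2 FPKM in the MEKi hearts. The other 8 hearts lay close together. Its log2 difference was -0.19 (SE 0.18, limma adjusted p = 0.831), and -0.05 without vehicle 1 and -0.10 without vehicle 2. In the same way, vehicle 1 and vehicle 2 were the top hearts for 3 of 8 smooth muscle and pericyte markers, Pdgfrb, Notch3 and Cspg4, and for 3.18% of the genes tested. Pdgfrb, a pericyte receptor, was at 10.6 and 11.1 FPKM in these hearts and at 6.22 to 7.10 FPKM in the other 8. The markers other than Pdgfrb, Notch3 and Cspg4, the most abundant ones included, were highest in vehicle 5 or MEKi 2. The summed level of the 8 markers was 145 to 210 FPKM with vehicle and 152 to 170 FPKM with MEKi, highest in vehicle 5, and the part of these cells in the Kcnj8 values was not tested.

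The sulfonylurea receptors that complete these channels lie beside their pores, Abcc8 at 3.76 kb from Kcnj11 and Abcc9 at 16.2 kb from Kcnj8. Abcc8 was at 4.08 ± 0.580 FPKM with vehicle against 4.91 ± 0.585 FPKM with MEKi (log2 difference 0.27, SE 0.12, limma adjusted p = 0.650). Abcc9, the more abundant receptor, was at 25.1 ± 6.96 and 23.0 ± 4.87 FPKM (log2 difference -0.11, SE 0.21). In each of the 10 hearts the pore order (Kcnj11 above Kcnj8, by 1.36 to 3.18 times) and the receptor order (Abcc9 above Abcc8, by 3.47 to 9.04 times) held.

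Among the voltage-gated repolarizing channels, Kcnd2 was at 1.61, 2.22, 1.83, 1.31 and 2.35 FPKM in the vehicle hearts 1 to 5 and at 2.41, 2.06, 2.80, 2.06 and 3.15 FPKM in the MEKi hearts 1 to 5. Vehicle 2 and vehicle 5 fell among the MEKi hearts and the other 3 vehicle hearts below them. The log2 difference was 0.41 (SE 0.18, limma adjusted p = 0.619, exact permutation p = 0.0714). Kcnd3 was at 0.735 ± 0.0555 and 0.791 ± 0.108 FPKM (log2 difference 0.09, SE 0.16). Kcnip2 was at 60.1, 58.6, 64.0, 45.7 and 31.2 FPKM in the vehicle hearts 1 to 5 and at 66.0, 36.8, 44.6, 50.4 and 80.7 FPKM in the MEKi hearts 1 to 5. It spread widely in both groups, with the lowest heart a vehicle heart and the highest a MEKi heart, and its log2 difference of 0.09 (SE 0.24, limma adjusted p = 0.956) took the other sign without vehicle 5 or without MEKi 5.

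Kcna5, the ultrarapid delayed rectifier pore, had overlapping groups and a mean that was lower with MEKi. The vehicle hearts 1 to 5 were at 3.76, 5.89, 5.78, 9.44 and 11.2 FPKM and the MEKi hearts 1 to 5 at 5.48, 4.09, 4.85, 9.09 and 3.51 FPKM. Vehicle 4, vehicle 5 and MEKi 4 stood apart above the other 7 hearts. The log2 difference was -0.38 (SE 0.30, 95% interval -1.05 to 0.28, limma adjusted p = 0.808) and it was 0.02 without vehicle 4 and vehicle 5. Kcna7, its relative, was at 1.98 ± 0.700 and 1.53 ± 0.435 FPKM (log2 difference -0.30, SE 0.26).

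The delayed rectifiers of the Kcnh and Kcnq type had intervals that spanned 0. Kcnh2 was at 17.3, 17.3, 14.0, 13.6 and 8.14 FPKM in the vehicle hearts 1 to 5 and at 12.6 to 18.1 FPKM in the MEKi hearts (log2 difference 0.17, SE 0.19, limma adjusted p = 0.870). Kcnq1 was at 6.64, 9.32, 7.30, 8.16 and 3.66 FPKM in the vehicle hearts 1 to 5 and at 8.18, 7.64, 8.38, 7.90 and 12.0 FPKM in the MEKi hearts 1 to 5. For Kcnq1, vehicle 5 was low and MEKi 5 high, with the other 8 hearts between 6.64 and 9.32 FPKM. Its log2 difference was 0.37 (SE 0.22, limma adjusted p = 0.736), and 0.16 without vehicle 5. The ratio of Kcne1 to Kcnq1 FPKM ran from 0.0479 to 0.567 with vehicle and from 0.180 to 1.12 with MEKi, so it overlapped although Kcne1 alone did not.

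Kcnk3 was the steadiest of the 28 members, with a residual SD of 0.12 on the log2 scale. It was at 62.8, 59.5, 66.1, 55.0 and 51.2 FPKM in the vehicle hearts 1 to 5 and at 57.4 to 66.3 FPKM in the MEKi hearts, a log2 difference of 0.07 (SE 0.09, 95% interval -0.12 to 0.26). Kcnk6 was at 1.28 ± 0.320 and 0.946 ± 0.132 FPKM (log2 difference -0.38, SE 0.18, limma adjusted p = 0.656), its highest value in vehicle 5 at 1.79 FPKM. Kcnk2 was at 0.659 ± 0.103 and 0.497 ± 0.248 FPKM (log2 difference -0.42, SE 0.27). Like Kcnab2 below, it passed the filter only through the vehicle hearts. The calcium-activated Kcnn1 was at 3.40 ± 0.659 and 3.42 ± 0.539 FPKM, and Kcnn2 at 1.01 ± 0.268 and 1.17 ± 0.264 FPKM. The sodium-activated Kcnt2 was at 1.12 ± 0.372 and 0.849 ± 0.212 FPKM. Of the remaining accessory members, Kcnip3 was at 0.624 ± 0.278 and 0.627 ± 0.140 FPKM, Kcnab2 at 0.705 ± 0.441 and 0.484 ± 0.177 FPKM, and Kcne4 at 0.626 ± 0.262 and 0.521 ± 0.139 FPKM. All of these overlapped between the groups.

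Across members, vehicle 5 and MEKi 5 stood at opposite ends. Vehicle 5 was the lowest of the 10 hearts for 11 of the 20 members with a mean of at least 1 FPKM, where it was the lowest for 18.1% of the 10705 genes at that level. These 11 were Kcnk3, Kcng2, Kcnip2, Kcnj11, Kcnh2, Kcnj5, Kcnq1, Kcnj2, Kcnn1, Kcna7 and Kcnn2. MEKi 5 was the highest heart for 9 of the 20 members and for 13.6% of the 10705 genes. Vehicle 5 was also the highest heart for 5 of the 28 expressed members, Kcna5, Kcnk6, Kcnt2, Kcnip3 and Kcnab2. The summed FPKM of the 28 members was 216 in vehicle 5 and 348 in MEKi 5, and 276 to 322 in the other hearts. The median residual SD within groups was 0.37 for the 28 members and 0.25 for the genes tested, on the log2 scale.

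**Figure D4:**
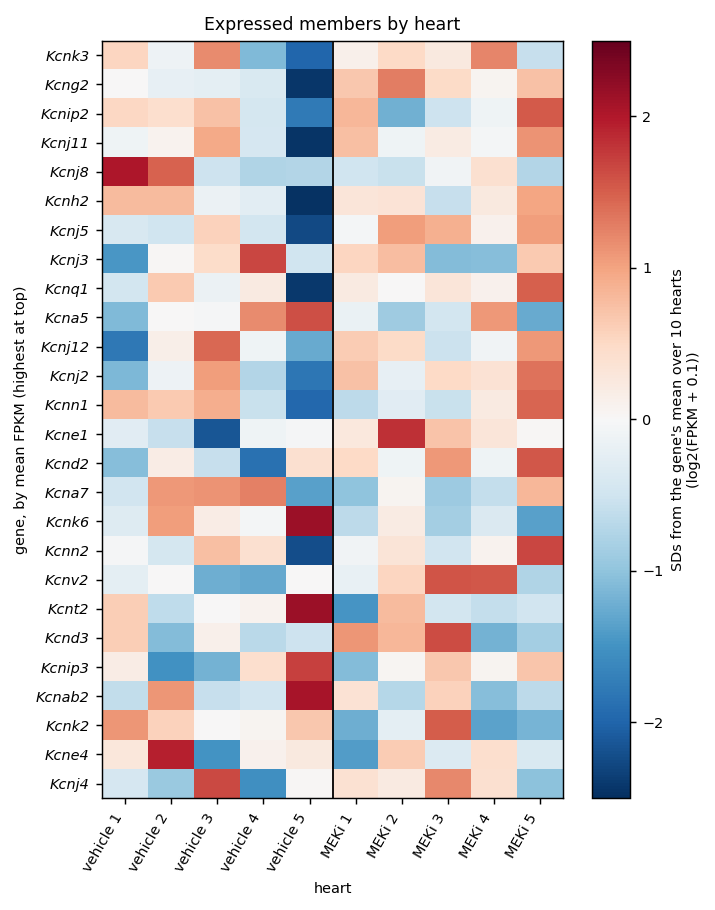
Of the 28 expressed potassium channel genes, 26 (rows, highest mean FPKM at the top) in each heart (columns), as the number of SDs from that gene's mean over the 10 hearts on the log2(FPKM + 0.1) scale. Vehicle 5 is the lowest column in 11 rows, among them Kcnk3, Kcng2 and Kcnip2, and MEKi 5 is high in many of the upper rows.

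Markers of other tissue parts moved with some of these hearts. The cardiomyocyte marker sum (6 of 6 genes tested, 0 with an adjusted p under 0.05) was 10850 to 13620 FPKM with vehicle and 10840 to 14360 FPKM with MEKi, so the tissue label held in every heart, and both of the lowest values were those of vehicle 5 and MEKi 5. The atrial sum of 7 genes was 2196 FPKM in vehicle 4, 842 in vehicle 5 and 1136 in MEKi 2, and 143 to 473 FPKM in the other 7 hearts, with atrial myosin light chain Myl7 at 615, 258 and 520 FPKM in those hearts and at 1.58 to 27.0 FPKM in the others. The red cell sum of 3 genes was 9371 FPKM in vehicle 4 and 11080 in vehicle 5 and 1070 to 2494 FPKM in the others. Vehicle 5 also had the highest endothelial, fibroblast, macrophage and smooth muscle sums. The adipocyte sum of 4 genes was 93.8 FPKM in vehicle 4 and 89.4 FPKM in MEKi 2, and 0.365 to 28.1 FPKM in the others. Vehicle 4 and MEKi 2 are thus high for both the atrial and the adipocyte sums. For Kcnip2, 31.2 to 45.7 FPKM in the 3 hearts with the highest atrial sums stood beside 44.6 to 80.7 FPKM in the other 7. Kcnj3, known from atrial cells, was at 7.65 to 11.0 FPKM in those 3 hearts and at 6.52 to 9.31 FPKM in the other 7.

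The leading counts were recomputed without these hearts. Without the 3 hearts with the highest atrial sums, the median log2 difference of the members was 0.03, with 15 above 0 and 13 below, and 2 members, Kcne1 and Kcnd2, were higher at an unadjusted limma p under 0.05, as were 3.11% of the genes tested. There Kcng2 had a log2 difference of 0.17 (limma adjusted p = 0.849) and Kcne1 of 1.42 (limma adjusted p = 0.743). Without vehicle 4 and vehicle 5, the hearts with the highest red cell sums, the median was 0.02, and Kcne1 at 1.75 and Kcng2 at 0.21 were the members higher at that threshold, beside 3.55% of the genes tested, while Kcnj8 was lower at -0.41 (limma adjusted p = 0.661). Kcne1 and Kcng2 stayed without overlap in either case, which leaving out hearts cannot change once groups lie apart. Without vehicle 4 and vehicle 5, 5.33% of the genes tested did not overlap, beside these 2 of 28 members (7.14%). Without the 3 atrial-high hearts Kcnk6, lower with MEKi, joined them, which made 3 members where 7.25% of the genes tested did not overlap. The part of atrial tissue, blood or other cells in the differences between groups was not tested.

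**Figure D5:**
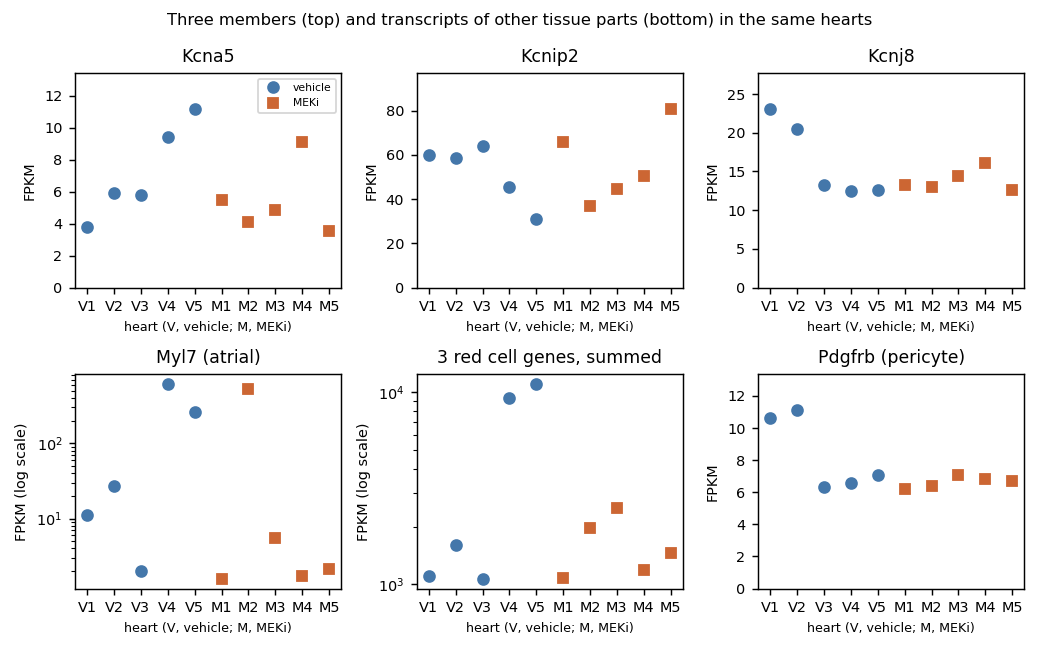
FPKM per heart (V1 to V5, vehicle; M1 to M5, MEKi) of Kcna5, Kcnip2 and Kcnj8 (top, linear axes from 0), and below them Myl7 and the summed red cell genes (log axes) and Pdgfrb (linear axis). Myl7 is high in V4, V5 and M2, red cell transcripts are high in V4 and V5, and Kcnj8 and Pdgfrb are both highest in V1 and V2. Of 8 smooth muscle and pericyte markers, 3 were highest in V1 and V2, Pdgfrb among them.

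Genes that work with potassium channels were read from a separate list of 35, which holds receptors, scaffolds, pacemaker channels, ion pump subunits, chloride cotransporters and regulators. Of these 26 were tested, 15 with a log2 difference above 0 and 11 below, and 0 had an adjusted p under 0.05. At an unadjusted limma p under 0.05, 4 were higher (Irx3, Ccdc51 and Abcc8 among them) and 2 lower (Hcn4 and Atp1b2). Of all genes tested, 3.67% were higher and 3.94% lower at that threshold. The median log2 difference of the list was 0.05. Irx3, a homeobox factor of the ventricular conduction system, was at 6.82 to 12.4 FPKM and 13.4 to 15.8 FPKM (log2 difference 0.49, SE 0.15, limma adjusted p = 0.456). It was 1 of 2 genes on the list whose groups did not overlap, both higher with MEKi, as for 0.794% of the genes tested. Irx5, known to repress Kcnd2 in the mouse ventricle, was at 4.63 ± 0.397 and 4.92 ± 0.661 FPKM, and Klf15, a factor known to drive Kcnip2, at 12.1 ± 3.65 and 14.8 ± 2.74 FPKM, each with overlapping groups. Hcn4, the pacemaker channel, was at 0.994 ± 0.165 and 0.715 ± 0.177 FPKM (log2 difference -0.44, SE 0.20, limma adjusted p = 0.640). Dpp10, a partner of the transient outward pores, and Lrrc26 were listed at 0 in every heart.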

How the data were processed

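Poly(A) RNA of 10 hearts, 5 vehicle and 5 MEKi, was sequenced, and the authors deposited 1 table of FPKM with gene lengths, biotypes and coordinates. The submitters' processing notes name fastp, STAR 2.5, HTSeq 0.6.1 and mm10, and a strand setting was not given in the sources used here. All 10 columns were mapped to hearts by their labels. FPKM multiplied by gene length was a whole multiple (tolerance 0.01) of 1 step for 100% of values in every heart, which gave 13647167 to 18474002 fragments per heart, used for depth and for the limit of 3 fragments behind a value of 0. The step also gave the library size that scaled the FPKM, which was not the fragment total. It was 14218190 against 15371692 fragments in vehicle 3 and 17139803 against 16256252 in MEKi 1. Such limits cover counting error only.

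The 12602 genes averaging 0.5 FPKM or more were tested in limma 3.58.1 (R 4.3.3; lmFit and eBayes with a trend) on log2(FPKM + 0.1), two-sided, with Benjamini-Hochberg adjustment over all of them. The pseudocount understates the change of low genes. The fit was checked on simulated data. A two-sided exact permutation test of the mean log2 value stands beside single members. Differences across members were described by counts and medians beside those of all genes tested. Filter stretches came from GENCODE M21 transcripts.

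The members, lists, tests and alternatives were chosen with earlier results of these data known. The genes named were carriers of the known cardiac potassium currents, the most abundant expressed member of each subfamily, members called or without overlap, the 5 with the smallest p, and those nearest the filter, and other expressed members were added. Some genes of the members and lists are counted but not reported here by name. Alternatives were another pseudocount, filter, scale or gene set, voom on recovered fragments, eBayes without a trend, a replicate block, and leaving out hearts. The set of 2 hearts with the highest red cell sums was chosen after seeing the data.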

Additional observations from a re-analysis of the deposited data

Results flagged for a closer look

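Over the 28 expressed members and both groups, 56 sets of 5 hearts were examined for a heart whose gap to its nearest neighbour exceeded Dixon's 95% critical share of the range of its group, and 5 sets had one, where chance gives about 2.8. Kcng2 was at 36.5 FPKM in vehicle 5 and at 53.3 to 57.2 FPKM in the other vehicle hearts. Kcnq1 was at 12.0 FPKM in MEKi 5 and at 7.64 to 8.38 FPKM in the other MEKi hearts. Kcne1 was at 8.54 FPKM in MEKi 2, one of the hearts with high atrial transcripts, and at 2.16 to 3.66 FPKM in the other MEKi hearts, while vehicle 4, with the highest atrial sum, was at 1.94 FPKM. Kcnk2 was at 0.923 FPKM in MEKi 3 and at 0.339 to 0.507 FPKM in the other MEKi hearts. Kcnj4 was at 1.24 FPKM in vehicle 3 and at 0.134 to 0.447 FPKM in the other vehicle hearts, with at most 38 fragments.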

How the results depend on the processing

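Under every alternative run, 0 members had an adjusted p under 0.05. The count without overlap was 2 in the reported fit and 1 on the TPM scale, after quantile normalization and at a mean of at least 5 FPKM, which leaves out Kcne1. It was 3 with no filter, without MEKi 2, without MEKi 3, without vehicle 3 and without the 3 hearts with the highest atrial sums. Leaving out hearts can raise this count but cannot lower it. The share of all genes tested without overlap ran from 1.12% to 7.25% over the settings. The members' median log2 fold change of 0.09 became -0.0183 with no filter, which takes in 79 members. TPM moved the median of all genes tested from 0.01 to 0.09 and that of the members to 0.17. Replicate numbers did not pair the hearts (correlations of same-numbered hearts -0.15 to -0.02, and 0 hearts correlated best with their own number). With a replicate block 0 members were called and the median was 0.09. There 3 members had an unadjusted limma p under 0.05, all higher with MEKi, beside 2.9% of the genes tested in that direction. Of the 28 log2 fold changes, 19 kept their sign throughout. Kcnj3 was 0.0598 on the TPM scale. Without the 3 hearts with the highest atrial sums, signs turned for Kcnk3 (-0.0321), Kcnip2 (-0.0493), Kcnh2 (-0.079), Kcnj3 (0.0198), Kcna5 (0.0988) and Kcnn1 (-0.16). Without the 2 with the highest red cell sums they turned for Kcnk3 (-0.0265), Kcnip2 (-0.185), Kcnh2 (-0.0722), Kcnj3 (0.0683), Kcna5 (0.0203) and Kcnn1 (-0.18). Leaving out 1 heart at a time, the ranges that cross 0 were -0.108 to 0.0792 for Kcnj3, -0.0813 to 0.226 for Kcnip2, -0.0985 to 0.0738 for Kcnn1, -0.084 to 0.252 for Kcnip3, -0.36 to 0.0012 for Kcne4 and -0.0112 to 0.258 for Kcnh2. The causes were not tested. Depth limits the members under 1 FPKM most, down to 4 fragments in a heart for Kcnj4.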
